A study of Mus musculus with 32 samples.

Results

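The clustered protocadherin genes are adhesion genes arranged in 3 tandem subclusters on mouse chromosome 18. Members were all RefSeq protein-coding genes of that chromosome whose symbol starts with Pcdha, Pcdhb or Pcdhg, which gave 57 of 21887 protein-coding genes: 14 in the alpha, 22 in the beta and 21 in the gamma subcluster. The transcribed pseudogene Pcdhgb8 was left out by the rule. From the start of Pcdha1 (18:36930285) to the shared end of the gamma genes the locus spans 911.6 kb (mm10).

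Trimethylated lysine 9 of histone H3 (H3K9me3), found in silent chromatin, had been mapped by ChIP-seq in male germ cells from testes of Mvh-Venus transgenic mice, a line with a fluorescent germ cell reporter. Cells were taken before birth at E13.5 and E16.5 (embryonic days) and after birth at P0 and P3 (postnatal days), and were either Morc1 (+/-), here het, or Morc1 (-/-), here KO. MORC1 is an ATPase needed in the male germ line for transposon silencing. All controls were heterozygotes. The 16 H3K9me3 samples formed 8 groups of 2, and each group was represented by 1 deposited peak list, so no value below has a replicate error and no difference was tested. Read depth is unknown, and covered length depends on it and on the peak threshold. Peak lists hold no expression, so neither the labelled cell type nor the loss of Morc1 could be checked.

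Protocadherins are cell surface proteins of the cadherin superfamily, best known for giving single neurons distinct surface identities. Each alpha and gamma member has its own promoter and variable first exon, which is spliced to constant exons shared by the subcluster, whereas a beta gene is a single exon. In neurons most variable exons are chosen at random in each cell, while the C-type members (Pcdhac1, Pcdhac2, Pcdhgc3, Pcdhgc4 and Pcdhgc5) are used more broadly. The histone methyltransferase SETDB1 is known to place H3K9me3 over this locus in neurons. No member sequence is printed here, and members are given by position and covered length.

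At E13.5 the mark covered much of all 3 subclusters, first exons included. In the 6 later lists the alpha and gamma first exons were almost free of peaks, and the beta exons were covered in part at E16.5 and little at P0 and P3. The bases between them stayed partly covered in the alpha and beta subclusters, and the gamma subcluster was nearly empty. Both genotypes showed this course. Over the whole genome, by contrast, the ratio of covered length at E16.5 to that at E13.5 was 1.84 (het) and 1.49 (KO).

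**Figure D1:**
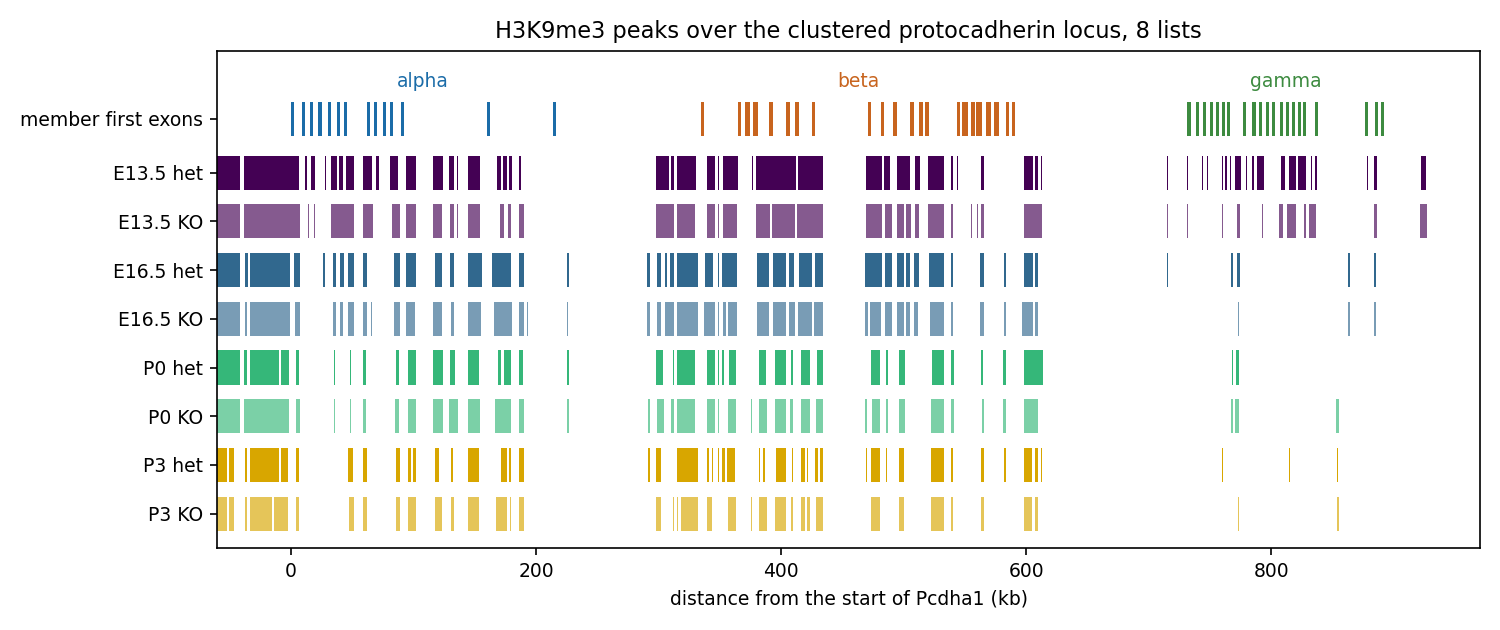
Peaks of the 8 lists (rows) along the locus, in kb from the start of Pcdha1, with the first-exon windows of the members above (whole gene bodies in the beta subcluster). In the E13.5 rows peaks lie across the gamma members, where 17 het and 9 KO peaks were listed, and the later rows have 2 to 4 peaks there.

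Covered length was first summed over the union of member gene bodies, each base counted once. The alpha bodies overlap into a block of 258.6 kb that runs to the constant exons, and the gamma bodies form a block of 180.1 kb. The 22 beta bodies sum to 75.6 kb. In the alpha subcluster the 4 het lists, from the youngest stage to the oldest, covered 84.2, 74.2, 48.5 and 40.9 kb, or 32.6%, 28.7%, 18.8% and 15.8%. The 4 KO lists covered 83.7, 72.6, 59.96 and 51.2 kb in the same order, or 32.4%, 28.1%, 23.2% and 19.8%. Each later list thus held less than the one before it in both genotypes, and the 2 postnatal KO lists held more than their het counterparts.

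In the beta subcluster the bodies, which leave out the bases between genes, had a smaller share of their E13.5 cover in the later lists than the alpha block. The beta bodies were covered in het by 22.3 kb (29.5%), 9.74 kb (12.9%), 0.917 kb (1.21%) and 1.51 kb (1.99%) from E13.5 to P3. In KO the lengths were 19.8 kb (26.2%), 7.64 kb (10.1%), 0.942 kb (1.25%) and 1.84 kb (2.43%). From E13.5 to P0 the covered share was lower at each step, and at P3 it was slightly higher than at P0 in both genotypes.

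In the gamma subcluster nearly all of the difference lay between E13.5 and E16.5. Het peaks covered 40.9 kb (22.7%) at E13.5, then 6.24 kb (3.46%), 3.76 kb (2.09%) and 3.003 kb (1.67%). KO peaks covered 25.4 kb (14.1%) at E13.5, then 3.81 kb (2.11%), 6.64 kb (3.68%) and 2.51 kb (1.40%). The E16.5 length was 0.153 of the E13.5 length in het and 0.150 in KO. Over the same step the ratio was 0.881 in het and 0.867 in KO for alpha, and 0.436 and 0.385 for beta bodies. Over the whole beta span of 256.4 kb, which like the alpha block takes in the bases between exons, it was 0.897 in het and 0.902 in KO, close to alpha. That span was covered to 48.8%, 43.7%, 27.5% and 24.1% in het and to 47.4%, 42.8%, 30.6% and 24.9% in KO, in stage order.

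**Figure D2:**
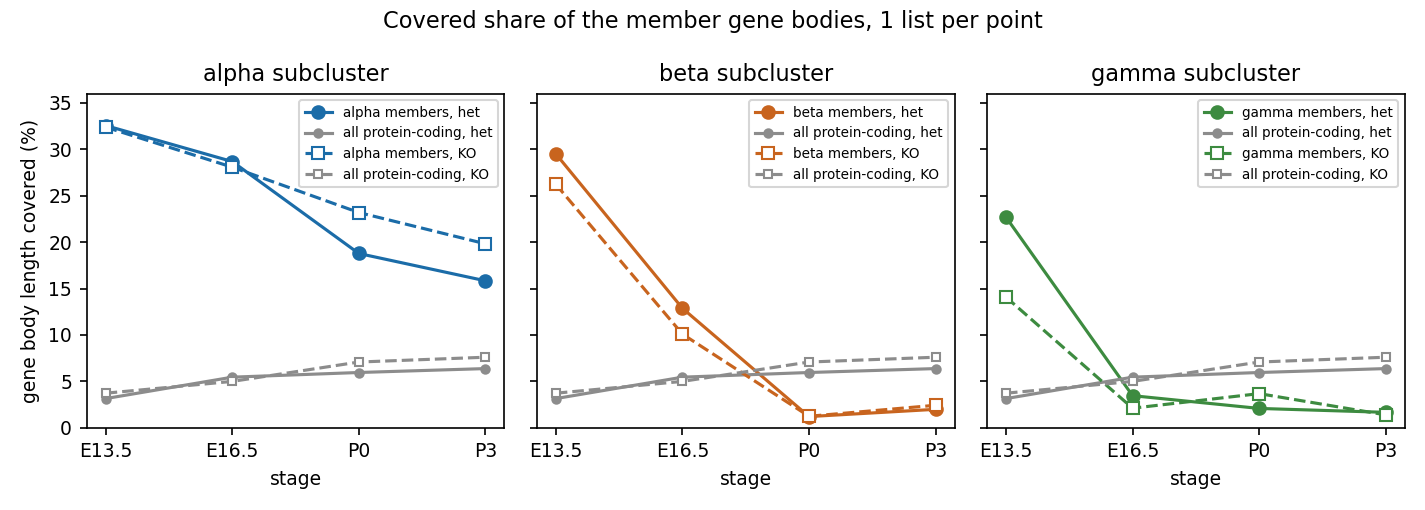
Share of gene body length covered by peaks (y axis, %) at the 4 stages (x axis) in each subcluster, with all protein-coding gene bodies in grey; each point is 1 list, and filled circles are het and open squares KO. At E13.5 all 3 subclusters lie above the grey points, and at P0 and P3 only alpha does, with beta measured over its gene bodies alone.

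Against all protein-coding genes the order of the subclusters changed with age. The union of all protein-coding gene bodies was covered to 3.15% in het and 3.73% in KO at E13.5, and to 6.38% and 7.60% at P3. At E13.5 each subcluster had a larger covered share than that in both lists. At P0 and P3 the alpha block was above the all-gene share, and the beta bodies and gamma block were below it. The whole beta span was above both the all-gene share and the alpha block at those stages. The 12 Pcdh genes outside the subclusters, which encode other protocadherins on several chromosomes, were covered to 2.499% in het and 3.25% in KO at E13.5 and to 6.86% and 6.64% at P3. The 23 Cdh genes, which encode other cadherins, were covered to 3.84% and 4.60% at E13.5 and to 8.79% and 9.54% at P3. Both sets had a larger covered share at P3 than at E13.5, the opposite of all 3 subclusters. Among these 12, Pcdh8 was the only one with a call at E13.5 (36.2% of its body in het, 22.0% in KO) and none in the 6 later lists.

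Cover did not begin at the first member. The stretch just before Pcdha1 held long peaks in all 8 lists, among them one in E13.5 het from -66.5 to -41.4 kb of its start and one of 23.8 kb in P3 het. The 5 nearest protein-coding genes before it (Wdr55, Dnd1, Hars, Hars2 and Zmat2), which lie beyond that stretch, carried no peak in any list. Of the 5 genes after the gamma subcluster, Diaph1 had 3.99 kb (het) and 5.11 kb (KO) covered at E13.5 and nothing later, Arap3 had 1.25 kb in E13.5 KO and Fchsd1 1.00 kb in P0 het. Hdac3 and Rell2 carried none. Slc25a2 and Taf7, which lie between the beta and gamma subclusters, carried none. The read-through records inside the locus (Gm37013, Gm38666 and Gm38667) run from alpha to gamma and share the members' bases.

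Because alpha and gamma bodies share most of their bases, members were then compared in a first-exon window. It was the first 2.5 kb from the end of the gene body that the other members do not share, and the whole body for beta members. As background, the first 2.5 kb of 14986 protein-coding genes whose strand is given in the RefSeq promoter table were measured. Beta windows are 2.34 to 5.27 kb long, so member counts are also given with the first 2.5 kb of beta members, a measure added after the data had been seen. At E13.5, 29 of 57 member windows in het and 24 in KO had at least 500 bp covered, against 4.70% and 6.38% of the background genes. At E16.5 the counts were 4 and 6 members, against 4.20% and 4.08%. They were 1 and 1 at P0, against 4.47% and 4.94%, and 2 and 2 at P3, against 4.60% and 4.98%. With the first 2.5 kb of beta members the counts were 26 and 21 at E13.5, 1 and 2 at E16.5, 0 and 0 at P0, and 1 and 0 at P3. The member share was above the background at E13.5 by either measure, and the later counts are too small to rank against it.

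At E13.5, 35 of the 57 windows in het and 27 in KO had at least 1 bp covered, against 5.81% and 8.08% of the background genes. With the first 2.5 kb of beta members these counts were 32 and 25. Over both E13.5 lists, 37 windows had at least 1 bp covered, 25 of them in both genotypes. Of these 37, 24 had no call at E16.5, and 22 had none in any later list. Windows without a call in any of the 8 lists numbered 19, with 7 in alpha, 6 in beta and 6 in gamma. For the counts that combine lists, the matching shares of background genes were not measured, so they describe the members only. Pcdhb21 was the only window with a later call (0.323 kb (het) and 0.266 kb (KO) at E16.5) and none at E13.5.

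Alpha windows were covered to 35.6% in het and 30.6% in KO at E13.5 and to at most 0.0457% in any later list. With windows of 5 kb, alpha at E16.5 was covered to 17.4% in het and 14.6% in KO, so the uncovered stretch is close to the start. The windows of Pcdha1 and Pcdha8, the alpha members with the highest mean share, were covered in full (2.5 kb) in both E13.5 lists. Pcdha1 had no covered base afterwards, and Pcdha8 had 3 bp in E16.5 het and 16 bp in P3 het. Pcdha6 and Pcdha7 were covered in full in E13.5 KO, and by 0.902 and 1.53 kb in E13.5 het. Pcdha3 was covered by 1.94 kb and Pcdha9 by 0.574 kb in E13.5 het only, and Pcdha11 by 2.5 kb in het and 0.720 kb in KO. Pcdha2, Pcdha4, Pcdha5, Pcdha10, Pcdha12, Pcdhac1 and Pcdhac2 had no call in any list.

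The edge of the peak that enters the alpha subcluster shows the same course base by base. At E13.5 a peak of 44.9 kb in het (36892319 to 36937176) and of 45.9 kb in KO ran across the start of Pcdha1 and ended 6.89 and 7.30 kb beyond it. At E16.5 the peak ended at -0.601 kb from that start in het and -0.938 kb in KO, and the next peak began 2.82 and 3.38 kb after it. At P0 the last peak before Pcdha1 ended at -1.42 kb (het) and -1.49 kb (KO) from the start, and at P3 at -2.67 and -2.61 kb. The last covered base before this first exon thus lay farther from it at each later stage, in het and in KO alike.

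Of the 14 windows with a call in an E16.5 list, 12 were those of beta genes, which were measured over whole bodies. By list, 12 beta windows in het and 9 in KO had a call. Over the first 2.5 kb, 6 beta members in het and 5 in KO had one, of 8 and 6 members in all. Among background genes, 5.28% in het and 5.14% in KO had a call at E16.5. The covered bases of Pcdhb9 and Pcdhb6, the beta members with the highest mean share, were as follows. Pcdhb9 (3.06 kb long) was covered in full in both E13.5 lists and in E16.5 het, by 1.38 kb in E16.5 KO, by 0.064 kb in P0 het and not at all in P0 KO, and at P3 by 0.220 kb (het) and 0.573 kb (KO). Pcdhb6 (3.58 kb long) was covered in full in both E13.5 lists, by 1.51 kb (het) and 1.44 kb (KO) at E16.5, and by at most 0.377 kb in the postnatal lists. Pcdhb5 was covered at E13.5 by 3.53 kb (het) and 1.61 kb (KO), by 0.464 kb in E16.5 het and by no peak elsewhere. Pcdhb8 was covered in full in both E13.5 lists and by 0.053 kb (het) and 0.423 kb (KO) at E16.5. Pcdhb18 was the only beta gene with a call in all 8 lists, between 0.565 kb (P0 KO) and 2.46 kb (E13.5 KO). Pcdhb1, the first beta gene in genomic order, had none in any list, and neither had Pcdhb3, Pcdhb16, Pcdhb19, Pcdhb20 or Pcdhb22.

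Gamma windows were covered to 35.3% in het and 23.8% in KO at E13.5, and to 0.516% and 0.882% at E16.5. Pcdhga10 was covered in full in both E13.5 lists and in no later one. Pcdhga11 was covered at E13.5 by 2.5 kb (het) and 1.23 kb (KO) and had no later call either. Pcdhgb4 was covered at E13.5 by 2.5 kb (het) and 0.242 kb (KO). Pcdhga9 and Pcdhgb6 went the other way, with 1.27 and 0.075 kb in het against 2.45 and 1.99 kb in KO. Pcdhgb2 was covered at E13.5 by 0.935 kb (het) and 1.001 kb (KO), and again by 1.001 kb in P3 het (a single peak, 37690023 to 37691023). Pcdhga2, Pcdhgb1, Pcdhga4, Pcdhga8, Pcdhgb5 and Pcdhgc5 had no call in any list.

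C-type windows together had less cover than the other alpha and gamma windows at E13.5, and more at E16.5. Of the 5, only Pcdhgc3 (0.828 kb in E13.5 het) and Pcdhgc4 had any call. Pcdhgc4 was covered at E13.5 by 1.04 kb (het) and 1.29 kb (KO) and at E16.5 by 0.271 and 0.463 kb. As a group the C-type windows were covered to 14.9% in het and 10.3% in KO at E13.5, against 41.5% and 35.7% of the 12 other alpha windows and 37.0% and 25.0% of the 18 other gamma windows. The windows of the background genes were covered to 2.93% and 4.06% at that stage. At E16.5 the C-type windows were covered to 2.17% (het) and 3.70% (KO), all of it in Pcdhgc4, against at most 0.01% of the other alpha and gamma windows. With 5 C-type members that lie together at the 3′ ends of their subclusters, their kind and their position cannot be told apart.

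**Figure D3:**
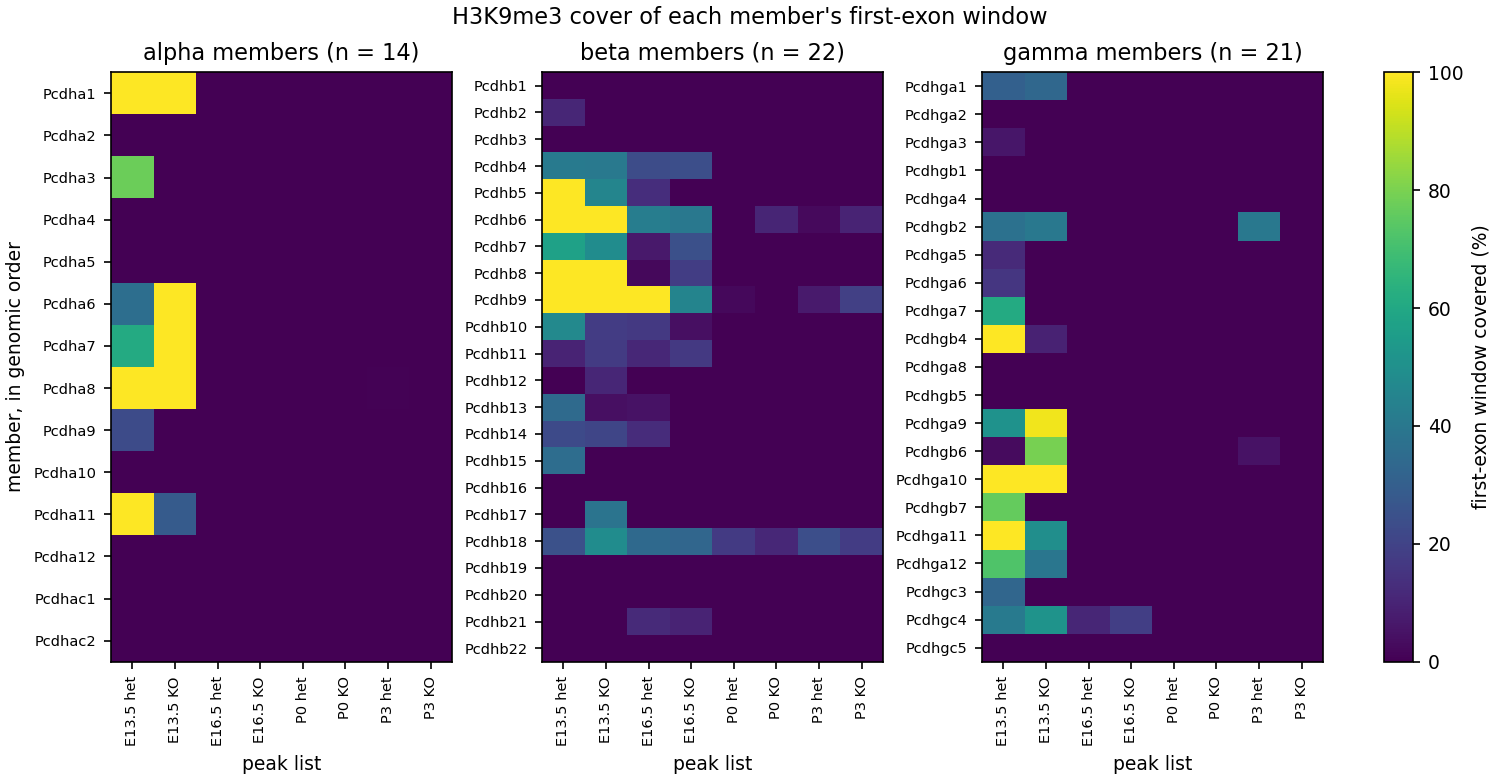
Share of each member's first-exon window covered by peaks (colour, 0 to 100%), with members in genomic order as rows and the 8 lists as columns. Most covered windows of alpha and gamma lie in the 2 E13.5 columns, with Pcdhgc4 at E16.5 and Pcdhgb2 in P3 het among the exceptions, and beta windows are also covered at E16.5 and, in Pcdhb18, at P0 and P3.

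Taken over single windows, 27 of 57 members in het and 22 in KO had at least 1.5 times less covered length at E16.5 than at E13.5 (with at least 500 bp in the larger list). Among background genes 2.39% and 4.05% were lower by this rule. No member had 1.5 times more, but no background share is given for that direction, so this count is not read further. Between E16.5 and P0, 4 members in het and 6 in KO were lower, all of them beta genes, against 1.77% and 1.31% of background genes. No alpha or gamma window could be called lower at this step, since none had 500 bp covered at E16.5. With the first 2.5 kb of beta members these counts were 1 and 2, and those from E13.5 to E16.5 were 25 and 21. Pcdhb4, Pcdhb6, Pcdhb9 and Pcdhb18 were lower in both genotypes. Between P0 and P3, Pcdhgb2 was higher in het (background 1.83%), and Pcdhb9 and Pcdhb18 were higher in KO (background 1.75%), which neither was over its first 2.5 kb.

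The bases between the windows behaved differently. In beta they were covered to 56.9% in het and 56.3% in KO at E13.5 and to 56.7% and 56.5% at E16.5, while the share of the beta genes themselves went from 29.5% to 12.9% in het and from 26.2% to 10.1% in KO. At P0 the bases between beta genes were covered to 38.5% in het and 42.8% in KO, and at P3 to 33.3% and 34.3%. In alpha the bases between windows were covered to 39.7% in het and 40.4% in KO at E13.5 and to 40.4% and 39.6% at E16.5. At P3 they were covered to 22.6% in het and 28.3% in KO. In gamma the bases between windows were covered to 20.7% and 11.9% at E13.5 and to 5.53% and 3.10% at E16.5, so cover was lower both within and between the gamma windows. The stretch after the last gamma window, which holds the constant exons, had no covered base in any list. The matching alpha stretch had 1.001 kb covered in each E16.5 and P0 list and none at E13.5 or P3.

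**Figure D4:**
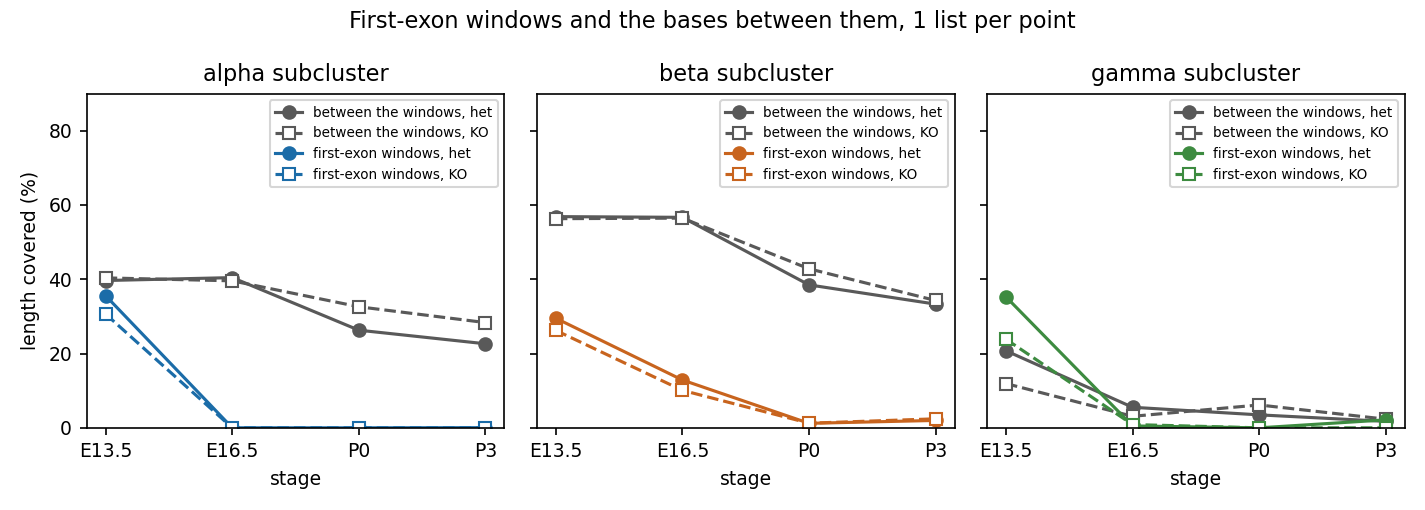
Share of length covered (y axis, %) in first-exon windows (coloured) and in the bases between them (grey) at the 4 stages; each point is 1 list, circles are het and squares KO. Between E13.5 and E16.5 the grey points of alpha and beta move by less than 1 percentage point, and the coloured points go down in all 3 subclusters.

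The position of the peaks relative to member starts showed the same contrast in beta, and in alpha only in part. At E16.5 the first 2.5 kb of beta members were covered to 7.49% in het and 3.89% in KO, against 45.0% and 45.0% of the 2.5 kb before the start and 42.6% and 43.8% of the stretch from 2.5 to 5 kb after it. These beta flanks had about the same cover at E13.5 (42.6% and 44.2% before, 44.6% and 42.9% after). For alpha members at E16.5 the first 2.5 kb were covered to 0.00857% in het and not at all in KO, the 2.5 kb before to 29.5% and 31.4%, and the stretch from 2.5 to 5 kb to 34.8% and 29.1%. At E13.5 these alpha flanks had been covered to 33.2% and 44.3% before the start, and to 54.5% and 48.8% after it. Near the alpha starts, cover was thus lower outside the windows too, although the total between the windows was steady. At P0 the stretch before the start was covered less as well, to 13.2% and 15.1% in alpha and 15.7% and 24.0% in beta. The median distance from an alpha start to the nearest covered base was 1.32 kb (het) and 1.43 kb (KO) at E13.5, and 5.78 and 5.80 kb at P3. From a gamma start it was 0.50 and 2.26 kb at E13.5, and 16.95 and 22.4 kb at E16.5.

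**Figure D5:**
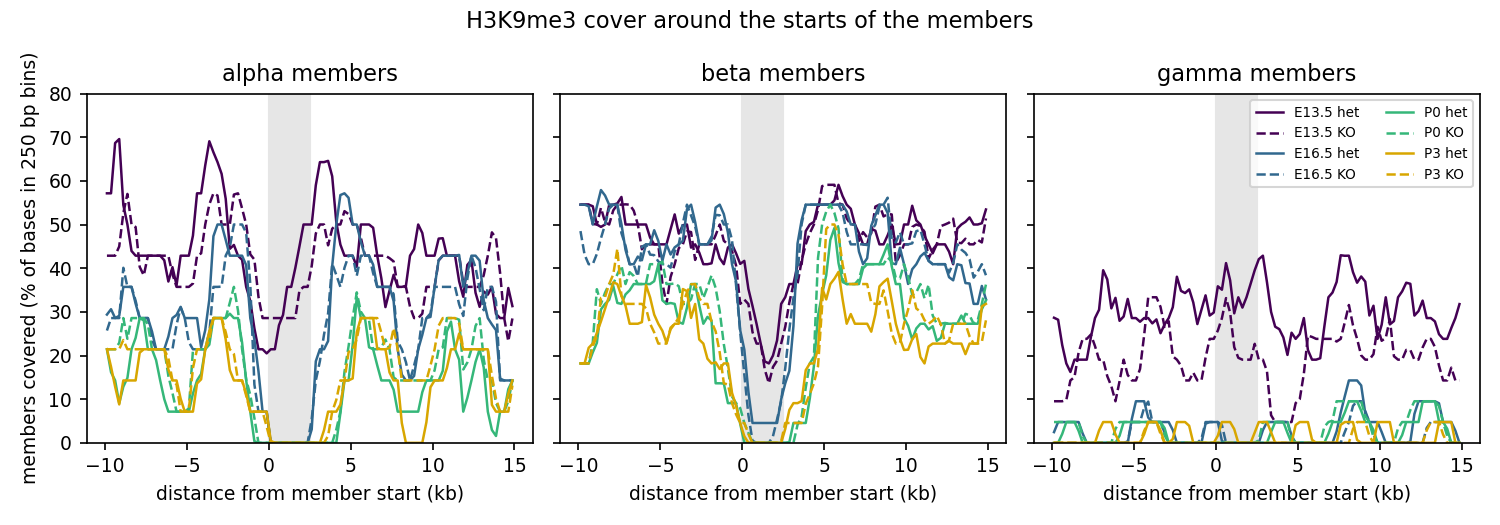
Share of bases covered in 250 bp bins (y axis, %) from 10 kb before to 15 kb after the member starts, averaged over the members of each subcluster; the grey band is the first 2.5 kb, colours are stages, and solid lines are het and dashed lines KO. From E16.5 on, the alpha and beta curves dip to near 0 in the band and are higher on both sides of it, and the gamma curves are low throughout.

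Some stretches were covered in all 8 lists, 33 segments with 99.4 kb in the whole locus. The alpha span held 12 of them (27.4 kb) and the beta span 16 (47.3 kb), the gamma span held none, and the others lay between subclusters. Only 0.565 kb of them lay in a member window, that of Pcdhb18. The longest was a segment of 11.6 kb between Pcdhac2 and Pcdhb1 (37248377 to 37259992). The next were one of 9.71 kb between Pcdhb14 and Pcdhb15 (37453076 to 37462781) and one of 8.22 kb between Pcdha12 and Pcdhac1 (37075079 to 37083298). Of the bases covered in either E13.5 list, 28.1% in alpha, 13.8% in beta and 85.1% in gamma were in no later list. Of the E13.5 bases within first-exon windows the shares were 99.9%, 59.3% and 93.0%.

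Het and KO were then compared within each stage to ask whether the genotypes differ at the locus. Over member bodies, in stage order, the KO to het ratio of covered length in alpha was 0.995, 0.979, 1.24 and 1.25. In beta it was 0.889, 0.784, 1.03 and 1.22. In gamma it was 0.621, 0.611, 1.76 and 0.837. Over all protein-coding gene bodies the ratios were 1.185, 0.916, 1.19 and 1.19, and over the whole genome 1.14, 0.923, 1.04 and 1.09. The postnatal alpha ratios thus lay close to those of all gene bodies. At E13.5 beta and gamma had less cover in KO than in het while all gene bodies had more. The alpha difference at that stage was -0.17 percentage points and turned to 0.48 with the longer 50% of each list or with peaks of at least 2 kb, and to 0.79 after 250 bp were trimmed from each peak end. In alpha the postnatal difference was 11.4 kb at P0 and 10.3 kb at P3, all of it outside the first-exon windows. KO-only bases in the alpha span summed to 11.8 kb at P0 and 11.2 kb at P3, against 0.407 and 0.853 kb of het-only bases.

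The gamma difference at E13.5 was the largest in kb, 40.9 kb in het against 25.4 kb in KO, and rested on short peaks in different places. Bases covered in both genotypes were 41.7% of the het and 67.2% of the KO gamma cover at that stage, and 0.347 of the bases covered in either. Over the whole beta span, bases between genes included, the same index was 0.874. In alpha it was 0.717, and genome-wide 0.713. The median gamma peak at E13.5 was 1302 bp long in het and 1850 bp in KO, against 5776 and 5910 bp over the whole beta span. The longest gamma peaks were 6.68 kb (het) and 7.74 kb (KO), so the cover did not lie in short peaks alone. Each of these 2 peaks overlapped a shorter peak of the other genotype (1.84 kb in KO and 5.88 kb in het).

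By single windows, 7 members had at least 1.5 times more in KO than in het at E13.5 (background 3.06%) and 13 had at least 1.5 times less (background 0.954%). The 13 were Pcdha3, Pcdha9, Pcdha11, Pcdhb5, Pcdhb10, Pcdhb13, Pcdhb15, Pcdhga7, Pcdhgb4, Pcdhgb7, Pcdhga11, Pcdhga12 and Pcdhgc3. At E16.5 only Pcdhb7 was higher in KO (background 0.507%) and only Pcdhb9 lower (background 0.701%). At P0 none was higher in KO (background 1.69%) and Pcdhb18 was lower (background 0.914%). At P3 Pcdhb9 was higher (background 1.49%) and Pcdhgb2 lower (background 1.01%). Over the first 2.5 kb, Pcdhb11 at E13.5, Pcdhb7 at E16.5, Pcdhb18 at P0 and Pcdhb9 at P3 did not pass the fold. No member window or body differed in the same direction at 3 or more stages. In alpha the largest window difference at E13.5 was that of Pcdha3 (1.94 kb in het, 0 in KO). Within E16.5 and within P3 it was that of Pcdha8, with only 0.003 and 0.016 kb in het and 0 in KO. No alpha or gamma window was covered at P0.

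By whole gene bodies, in which alpha and gamma members share bases, 3 members were higher in KO at E13.5 (10.9% of all protein-coding genes) and 11 lower (3.50%). At E16.5, 1 was higher (2.44%) and 8 lower (4.34%). At P0, 18 were higher (14.7%) and 1 lower (2.92%). At P3, 5 were higher (12.5%) and none lower (4.57%). The 18 at P0 are gamma members with nested bodies, so they are not separate differences. For 11 of them, Pcdhga6 to Pcdhga12, the only covered bases were those of 1 KO peak of 1.79 kb (37783248 to 37785036). The other 7, Pcdhga1 to Pcdhga5, held 3.76 kb in het and 6.64 kb in KO, that peak included. With equal peak numbers in every list the count of 18 became 1. Between stages, 29 bodies in het and 28 in KO were lower at E16.5 than at E13.5 (7.10% and 11.0% of all genes), and 2 and 2 were higher (18.6% and 14.3%). From E16.5 to P0, 28 in het and 7 in KO were lower (8.56% and 4.51%), and none in het and 7 in KO were higher (12.3% and 21.2%). From P0 to P3, 2 in het and 8 in KO were lower (6.69% and 7.90%), and 11 and 2 were higher (15.0% and 13.3%).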

How the data were processed

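The 8 deposited H3K9me3 peak lists, 1 per stage and genotype, hold chromosome, start and end (3 columns, in base pairs, unit other than a signal), and no peak score. Per the submitters' processing notes the build is mm10, and the tools named there are bcl2fastq 2.20, cutadapt 1.18, Bowtie2 2.3.4.1, deepTools 3.5.0 and HOMER 4.10, with no role given. The peak threshold, the use of the 16 H3 samples and the handling of replicates and of reads that map to several members are not given in the sources used here, and neither is read depth. Each list was treated as 1 pooled call set. Peaks outside chromosomes 1 to 19, X and Y (at most 2 per list) were left out.

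Gene positions came from RefSeq (GRCm38.p6, the assembly called mm10 by other sources). The gene table gives no strand: windows start at the unshared end of alpha and gamma bodies, and distances for beta members take the same orientation. A fold of 1.5 with at least 500 bp in the larger list was the limit for single genes. Code (Python 3.11.15, numpy 2.4.6, pandas 2.3.3) was tested on simulated intervals. Members and lists were chosen with earlier results of these data known. Genes named by rule were the C-type members, Pcdhb1, in each subcluster the 2 members with the highest and the 2 with the lowest mean window share, the largest het to KO window difference per stage, and members past the fold at 3 or more stages; the others were named after their values were seen.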

Additional observations from a re-analysis of the deposited data

Results flagged for a closer look

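The gamma subcluster was singled out because its het to KO difference ran in opposite directions at different stages, each time past a fold of 1.5. KO minus het was -8.61 percentage points of gene body length at E13.5 and -1.35 at E16.5, and 1.59 at P0. The step from E16.5 to P0 also ran in opposite directions, with -1.37 percentage points in het and 1.57 in KO. These differences were not tested, since each group had 1 list. At P0 they rest on 2 het peaks and 3 KO peaks over the gamma subcluster.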

How the results depend on the processing

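No paired analysis was possible because each group of 2 samples had 1 peak list with no replicate number, and for the same reason no replicate could be left out. With equal peak numbers (the 52628 longest peaks of each list), 29 of the 30 differences in covered share between genotypes or stages kept their sign. None took the opposite sign, and in the remaining one no difference was left. With gaps of up to 1 kb closed all 30 kept their sign. Trimming 250 bp from each peak end turned 3 small differences (alpha at E13.5, beta at P0 and gamma at P3, each KO minus het). Movement was judged against a 95% interval that counts 1 kb units as independent, which they are not.

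Gamma from E16.5 to P0 in het turned to 0.149 percentage points both with the longer 50% of each list and with peaks of at least 2 kb. Beta from P0 to P3 turned with the whole span (-3.42 in het, -5.67 in KO) and with 5 kb flanks (-2.32 and -4.06), and beta in KO from E13.5 to E16.5 shrank with flanks to -3.56. In first-exon windows, 5 of 20 differences took the opposite sign. Gamma KO minus het at E16.5 turned to 0.366, gamma in KO from E16.5 to P0 to -0.882 and gamma in het from P0 to P3 to 2.14. Alpha KO minus het at P3 turned to -0.0457 in these windows, and alpha in het from P0 to P3 to 0.0457. The step from E13.5 to E16.5 grew there to -35.5 (het) and -30.6 (KO) in alpha and to -34.7 and -23.0 in gamma, and alpha from E16.5 to P0 in het was -0.00857. Windows of 5 kb raised alpha at E16.5 to 17.4% in het and 14.6% in KO.

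With a fold of 2, members higher in KO numbered 1 at E13.5, 11 at P0 and 1 at P3, and members lower in KO 4, 1 and 0 at E13.5, E16.5 and P0. First-exon windows gave 7, 0 and 1 higher at E13.5, P0 and P3, and 1 lower at E16.5 and at P3. Equal peak numbers gave 1 higher and 0 lower at P0 and 2 higher at P3. Between stages a fold of 2 gave 16 lower in het from E16.5 to P0 and 1 lower from P0 to P3, and in KO 0 higher from E16.5 to P0 and 1 from P0 to P3. The causes of these shifts were not tested.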
